A study of Mus musculus with 6 samples.

Results

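The cell cycle and DNA replication genes described here are 44 genes of the 24016 in the table. They were chosen by symbol for their known function, with earlier results of these data already known. Of them, 26 act mainly in G2 and mitosis, some of them from S phase on, and are called mitotic members. The other 18 act at the start of or during DNA replication and are called S-phase members. All 44 were found by their Ensembl identifiers and all were tested. They were well covered, since the fewest reads on any of them in any library was 102 and the most was 6741.

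A dividing cell copies its DNA in S phase and separates the copies in mitosis, and the genes for these steps are transcribed in 2 waves. The G1/S wave, driven by E2F factors, supplies the helicase, the clamp and the nucleotides for replication. The later G2/M wave, which depends on MuvB complexes with B-MYB (*Mybl2*) and FOXM1 acting at a promoter element called the CHR, supplies the cyclins, kinases, kinetochore proteins and motors of mitosis. Osteoblast precursors divide before they mature, and division slows as matrix is laid down, while glucocorticoids are known to affect both processes in bone cells.

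The RNA came from MC3T3-E1 subclone 4 cells, a clonal wild-type preosteoblast line from mouse calvaria, so that results hold for 1 line. Cells of both groups were differentiated over 6 days in ascorbic acid (50 μg/ml) together with β-glycerophosphate (10 mM). One group of 3 libraries then received vehicle and the other group of 3 libraries received 100 nM corticosterone, the main glucocorticoid of mice, each for 24 h, and the labels give 10 nM calcitriol, the active form of vitamin D, for all libraries. The design text calls the 3 libraries of a group biological replicates but does not say how they were separated, and the p-values measure the spread between them. Between 16020401 and 25638645 reads per library fell on genes, and the 3 corticosterone libraries were those with the fewest. Values are normalized counts, that is reads divided by 1 size factor per library, and a floor of 3 reads equals 2.32 to 3.84 of them. Of the osteoblast markers, the collagen I genes and *Spp1* were at high levels, while *Phex* stayed at or below 9.94 normalized counts. The treatment was visible in the 5 glucocorticoid targets examined (*Tsc22d3*, *Fkbp5*, *Sgk1*, *Per1* and *Zbtb16*), all of which rose.

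Most mitotic genes were lower after corticosterone and most S-phase genes did not pass the test. In limma with Benjamini-Hochberg adjustment over all genes, 17 of the 26 mitotic members fell (65.4%) and 0 rose, against 8.2% of all genes that fell and 8.49% that rose. Among the 9787 genes with a mean at least as high as the lowest member 15.8% fell and 17.6% rose. Because the members were chosen with earlier results known, these shares are a description and no set test was run. The changes were small. The mean normalized count of the 17 changed by -22.5% to -11.5%, and 0 of the 44 members also passed an absolute log2 fold change of 1, which 2.78% of all genes did. The point estimate was negative in all 26 mitotic members, with a median log2 fold change of -0.21 and a range of -0.37 to -0.01, although those of *Bub1b*, *Ube2c* and *Mybl2* were positive when some library was left out, while the median of all genes was -0.01.

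Of the 18 S-phase members, 2 rose (*Cdt1* and *Cdc45*) and 0 fell at the same threshold. Their median log2 fold change was -0.03, and it was 0.02 without vehicle 1. At an unadjusted limma p under 0.05, 6 S-phase members differed, as did 6325 of all 24016 genes. *Cdt1* and *Cdc45* were higher, and *E2f1*, *Tyms*, *Rrm1* and *Ccne2* were lower. Of these 6, edgeR on the recovered reads called 2 lower while DESeq2 called 0 lower. The groups did not overlap in 20 of 26 mitotic members, all with corticosterone lower, and in 5 of 18 S-phase members, 3 with corticosterone higher and 2 lower. Such non-overlap occurred in 14.7% of all genes with corticosterone higher and in 14.9% with corticosterone lower, or 25.2% and 24.5% of genes at least as abundant as the lowest member.

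**Figure D1:**
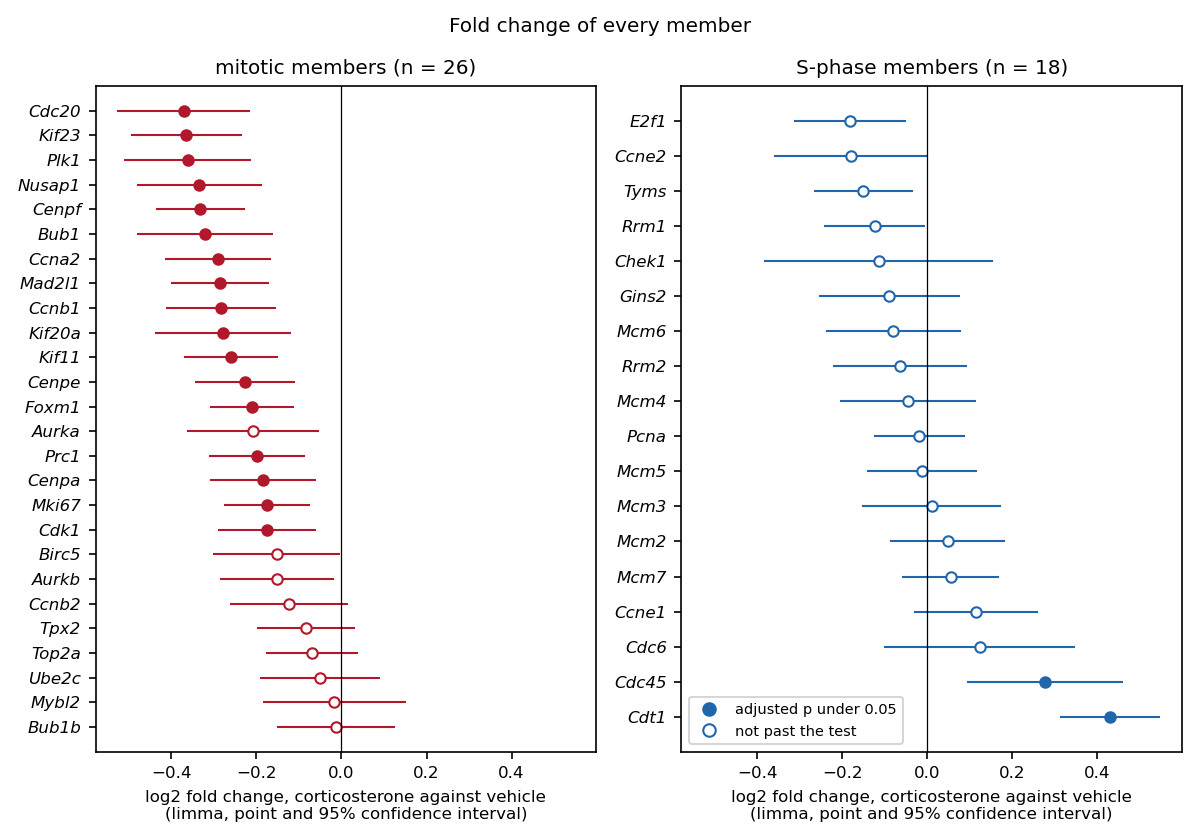
Log2 fold change of corticosterone against vehicle (x axis) for each of the 26 mitotic members (left) and 18 S-phase members (right), as points with 95% limma confidence intervals from 3 libraries per group. Filled points mark an adjusted p under 0.05, and all 26 mitotic estimates lie below 0, from -0.37 to -0.01, while S-phase estimates lie on both sides, from -0.18 to 0.43.

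Summed over genes, the mitotic members reached 39858, 36792 and 37727 normalized counts in vehicle libraries 1 to 3 and 33995, 32669 and 33639 in corticosterone libraries 1 to 3. The groups did not overlap, and the corticosterone mean was 87.7% ± 1.80 (SD, n = 3) of the vehicle mean. The S-phase sums were 25632, 21865 and 24217 with vehicle and 23450, 22963 and 24270 with corticosterone. Here the groups overlapped, and the corticosterone mean was 98.6% ± 2.76 (SD, n = 3) of the vehicle mean. The ratio of the mitotic to the S-phase sum, which needs no scaling between libraries, was 1.56, 1.68 and 1.56 with vehicle and 1.45, 1.42 and 1.39 with corticosterone. It was lower in each corticosterone library than in any vehicle library, and highest in vehicle 2.

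In these bulk libraries, fewer cycling cells and less of these RNAs per cycling cell cannot be told apart. Vehicle 2, the deepest library, was the lowest vehicle library in 15 of 18 S-phase and 16 of 26 mitotic members. Without it, 3 S-phase members were lower in limma, namely *E2f1* (adjusted p = 0.0465), *Mcm6* (adjusted p = 0.0387) and *Rrm1* (adjusted p = 0.019). Over the alternatives the adjusted p ranged up to 0.221, 0.986 and 0.531 for these genes, so that the lack of lower calls among S-phase members rests in part on that library. The osteoblast markers moved with treatment as well. Of 10 such genes 8 fell and 1 (*Spp1*) rose, and their summed level was 85.3% to 89.2% of the vehicle mean with corticosterone against 98.4% to 102% with vehicle. That sum mostly reflects the markers with the highest counts and not the typical marker. Their median log2 fold change was -0.38, with a range of -1.87 to 1.02, and 4 of the 10 were called past an absolute log2 fold change of 1. Markers of other cell types were examined too. The 3 endothelial markers analysed summed to at most 12.8 normalized counts in any library, the 3 macrophage markers to 262 to 300.03 with vehicle and 214 to 239 with corticosterone, and the 2 adipocyte markers to 7.72 to 21.1 with vehicle and 108 to 133 with corticosterone, nearly all of it *Fabp4*. Of the macrophage markers, *Lyz2* fell and *Csf1r* and *Cd68* did not pass the test. The 4 chondrocyte markers summed to 94.1% to 105% of the vehicle mean with vehicle and 79.3% to 80.1% with corticosterone, but went both ways, with *Col2a1* and *Sox9* lower, *Col10a1* higher and *Matn1* near 0. The part of any of these in the mitotic difference was not tested.

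**Figure D2:**
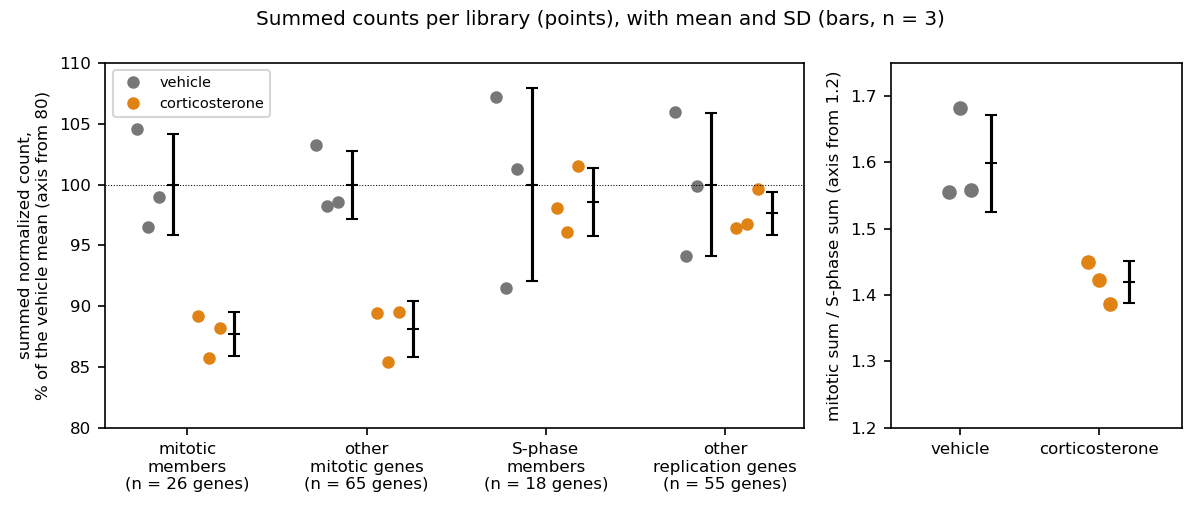
Left, summed normalized count of each gene list as a percentage of the vehicle mean (y axis, starting at 80), with 1 point per library, grey for vehicle and orange for corticosterone, and bars for the mean and SD (n = 3). Right, the mitotic sum over the S-phase sum (y axis, starting at 1.2), which lay between 1.56 and 1.68 with vehicle and between 1.39 and 1.45 with corticosterone.

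Promoter sequence differed in letters between the 2 classes. RefSeq promoters (GRCm38.p6, 250 bases before to 50 after the start) were matched for 36 of the 44 members, and *Ccna2*, *Ccne2*, *Gins2*, *Tpx2*, *Mcm4*, *Aurkb*, *Foxm1* and *Kif20a* had no entry. For 28 of the 36, bases 15 to 40 after the RefSeq start were found in a GENCODE transcript of the gene, and positions in the others are less certain. The *Cdk1* match printed at -15 lies inside the GENCODE span of that gene. The CHR was searched as TTTGAA or TTCGAA on both strands, and TTCGAA reads the same on either. It was found in 15 of 21 mitotic promoters (71.4%) and 3 of 15 S-phase promoters (20%), against 19.4% of all 27025 promoters. E2F letters (TTTCCCGC, TTTGGCGC, TTTCGCGC or TTTGCCGC, both strands) had the opposite distribution, in 1 of 21 mitotic and 6 of 15 S-phase promoters (40%), against 2.32% of all. Different E2F letters overlap each other in *Mcm5* and *Mcm6* and a CCAAT box in *Mcm7*, and each promoter was counted only 1 time per motif. The CCAAT box was in 81% of mitotic, 60% of S-phase and 37.9% of all promoters. Sequences of 9 members follow because they show the element of each wave in genes whose values are described next. Each is the 30 bases around a match, 5′ to 3′ on the strand of the gene, with the motif in capitals and its first base counted from the RefSeq start.
Cdc20, chr4:118437344-118437373, minus strand, motif at -18: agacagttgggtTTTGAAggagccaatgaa
Plk1, chr7:122159453-122159482, plus strand, motif at 31: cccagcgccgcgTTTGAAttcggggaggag
Kif23, chr9:61946780-61946809, minus strand, motif at 3: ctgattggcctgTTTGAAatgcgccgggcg
Cenpf, chr1:189688067-189688096, minus strand, motif at 3: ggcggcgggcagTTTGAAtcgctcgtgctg
Bub1, chr2:127831828-127831857, minus strand, motif at 15: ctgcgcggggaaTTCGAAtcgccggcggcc
Cdk1, chr10:69352910-69352939, minus strand, motif at -15: taccgcggcgagTTTGAAactgctggcact
Cdt1, chr8:122568035-122568064, plus strand, motif at 33: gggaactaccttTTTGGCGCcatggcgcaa
Mcm6, chr1:128359734-128359763, minus strand, motif at -47: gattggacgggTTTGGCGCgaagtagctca
Mcm5, chr8:75109345-75109374, plus strand, motif at -153: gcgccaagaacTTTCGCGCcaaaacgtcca

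The letters can be set beside the response within each class. Of the 15 mitotic members with a CHR match, 10 fell, with a median log2 fold change of -0.20. Of the 6 without one (*Ccnb1*, *Mad2l1*, *Birc5*, *Cenpe*, *Nusap1* and *Mybl2*), 4 fell, with a median of -0.26. *Cdt1* was the member with E2F letters that rose, and *Mcm3*, *Mcm5*, *Mcm6*, *Mcm7* and *Cdc6*, which also hold them, did not pass the test. A match is a description of sequence and does not show binding.

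**Figure D3:**
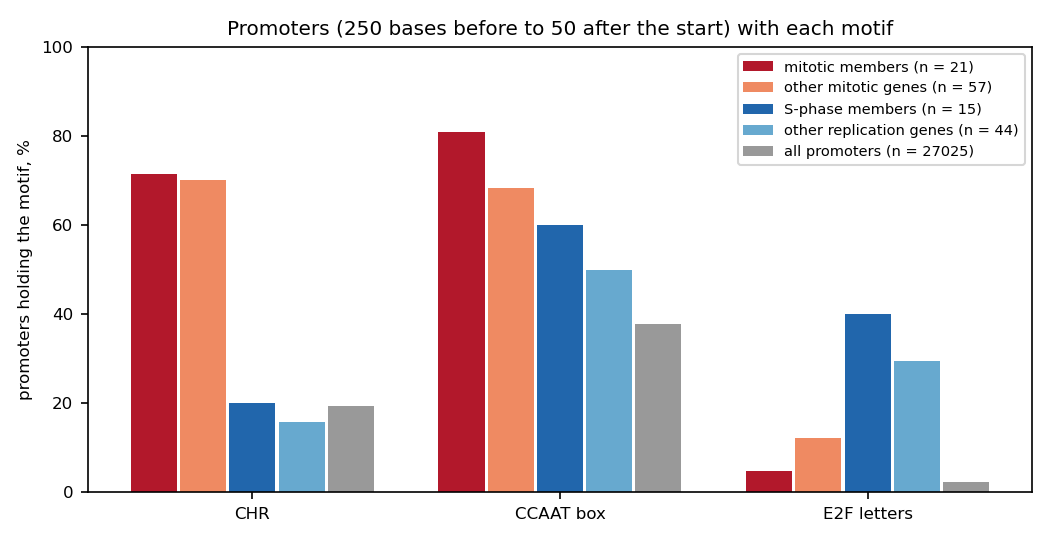
Share of promoters (y axis, percent) that hold the CHR, the CCAAT box or E2F letters in the window from 250 bases before to 50 after the start, for the gene lists and for all 27025 promoters (bars). The CHR is in 71.4% of mitotic and 20% of S-phase members, and the E2F letters are in 4.76% and 40%.

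Among mitotic cyclins, kinases and their transcription factors, 5 of 9 fell. *Plk1* (ENSMUSG00000030867, chr7:122159439-122169873, plus strand), a kinase needed for mitotic entry and spindle assembly, had 1114, 1009.5 and 1104 with vehicle and 828, 767 and 922 with corticosterone, in normalized counts of libraries 1 to 3 of each group (positions are those of GENCODE on GRCm38). Each corticosterone library was below each vehicle library, and the log2 fold change was -0.36 ± 0.07 (SE, limma adjusted p = 0.00118). *Ccna2* (ENSMUSG00000027715, chr3:36564865-36572150, minus strand), the cyclin of S phase and G2, had 1844, 1686 and 1605 with vehicle and 1443, 1326 and 1428 with corticosterone, without overlap, and its log2 fold change was -0.29 ± 0.06 (SE, limma adjusted p = 0.00177). *Ccnb1* (ENSMUSG00000041431, chr13:100778650-100786570, minus strand), the cyclin that activates CDK1 at mitotic entry, had 1122, 1028 and 1053 with vehicle and 937, 841 and 856 with corticosterone. The groups were again separate, with a log2 fold change of -0.28 ± 0.06 (SE, limma adjusted p = 0.0029), but 27.8% of its 31-mers also occur in another gene, mainly the pseudogene *Ccnb1-ps*. *Cdk1* itself (ENSMUSG00000019942, chr10:69335146-69352938, minus strand), the kinase of mitotic entry, had 2127, 1878 and 1988 with vehicle and 1754, 1719.7 and 1832 with corticosterone. Its 2 groups lay closer together, and its log2 fold change of -0.17 ± 0.05 (SE, limma adjusted p = 0.0316) kept the call in 1 of the 6 fits that leave out a library (without vehicle 2).

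*Foxm1* (ENSMUSG00000001517, chr6:128362967-128376146, plus strand), a transcription factor of the G2/M wave, had 2103, 2085 and 2179 with vehicle and 1846, 1799 and 1859 with corticosterone. All 3 vehicle libraries exceeded all 3 corticosterone libraries, with a log2 fold change of -0.21 ± 0.05 (SE, limma adjusted p = 0.00312). By contrast *Mybl2*, the MuvB partner, had 362, 329 and 360.0 with vehicle and 359.7, 334 and 345 with corticosterone, which overlapped, and its log2 fold change of -0.02 ± 0.08 (SE, limma adjusted p = 0.945) had a 95% interval of -0.18 to 0.15, with 21.1% of its 31-mers shared. The Aurora kinases and *Ccnb2* were separate between groups without passing the main test. *Aurka*, which matures centrosomes, had 703, 685 and 661 with vehicle and 543, 581 and 655 with corticosterone, a log2 fold change of -0.21 ± 0.07 (SE, limma adjusted p = 0.0626). It passed the threshold in edgeR (adjusted p = 0.041, range over the alternatives 0.0153 to 0.288). *Aurkb*, the catalytic part of the chromosomal passenger complex, had 1203, 1037 and 1048 with vehicle and 969, 979.7 and 1004 with corticosterone, a log2 fold change of -0.15 ± 0.06 (SE, limma adjusted p = 0.119, range over the alternatives 0.0272 to 0.412). *Ccnb2*, a second B cyclin, had 724, 655.3 and 678 with vehicle and 629.5, 603 and 655.0 with corticosterone. Its groups were thus only barely separate, and its log2 fold change was -0.12 ± 0.06 (SE, limma adjusted p = 0.247).

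In the spindle checkpoint and the anaphase-promoting complex, 3 of 5 members fell. *Cdc20* (ENSMUSG00000006398, chr4:118432901-118437352, minus strand), the activator of that complex and the target of the checkpoint, had 1291, 1309.8 and 1157 with vehicle and 1012, 858 and 1043 with corticosterone. It had the lowest estimate of all members, -0.37 ± 0.07 (SE, limma adjusted p = 0.00146), with no overlap, although 26.7% of its 31-mers are shared, mainly with the gene model *Gm7856*. *Bub1* (ENSMUSG00000027379, chr2:127801122-127831865, minus strand), a checkpoint kinase of the kinetochore, had 552, 563 and 544 with vehicle and 478, 452 and 403 with corticosterone. Its log2 fold change was -0.32 ± 0.07 (SE, limma adjusted p = 0.0055), and it also had separate groups. *Mad2l1* (ENSMUSG00000029910, chr6:66535390-66547220, plus strand), the MAD2 protein that inhibits CDC20, had 1138, 1108 and 1087 with vehicle and 894, 903 and 936 with corticosterone. Its libraries were tightly grouped in both conditions, and its log2 fold change was -0.29 ± 0.05 (SE, limma adjusted p = 0.000914). The checkpoint partner *Bub1b* behaved otherwise, at 1541, 1413 and 1349 with vehicle and 1502, 1298 and 1466 with corticosterone, with overlapping groups and a log2 fold change of -0.01 ± 0.06 (SE, limma adjusted p = 0.948) (95% interval -0.15 to 0.12). *Ube2c*, the E2 enzyme of the anaphase-promoting complex, overlapped too, at a log2 fold change of -0.05 ± 0.07 (SE, limma adjusted p = 0.695), and 25.3% of its 31-mers are shared, mainly with *Tnnc2*.

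Of the genes for chromosomes, centromeres and kinetochores, 4 of 6 fell. *Cenpf* (ENSMUSG00000026605, chr1:189640606-189688086, minus strand), a large kinetochore protein of G2 and mitosis, had 1536, 1533 and 1554 with vehicle and 1255, 1213 and 1206 with corticosterone. It had the smallest adjusted p of the mitotic members, with a log2 fold change of -0.33 ± 0.05 (SE, limma adjusted p = 8.77e-05), and the spread within each group was far below the gap between them. *Cenpe*, a kinetochore motor, had 1218, 1119.9 and 1152 with vehicle and 1009.6, 1001 and 971 with corticosterone, and its log2 fold change was -0.23 ± 0.05 (SE, limma adjusted p = 0.00679). *Cenpa*, the histone variant of centromeres, had 1620.1, 1649 and 1586 with vehicle and 1521, 1300.0 and 1458 with corticosterone, and its log2 fold change was -0.18 ± 0.06 (SE, limma adjusted p = 0.0377). *Mki67* (ENSMUSG00000031004, chr7:135689784-135716361, minus strand), which encodes the proliferation marker Ki-67, had 4685, 4194 and 4599.8 with vehicle and 4058, 3925 and 3945 with corticosterone, a log2 fold change of -0.17 ± 0.05 (SE, limma adjusted p = 0.0143). The groups of *Cenpa* and *Mki67* did not overlap, but the call of *Cenpa* held in 1 of the 6 fits with a library left out (without corticosterone 1) and that of *Mki67* in 2 (without vehicle 2 or corticosterone 1). *Top2a*, the topoisomerase that untangles chromosomes and that is made from S phase on, had 5466, 4818 and 5101 with vehicle and 4838, 5124 and 4695 with corticosterone. It overlapped and had a log2 fold change of -0.07 ± 0.05 (SE, limma adjusted p = 0.433). *Birc5*, survivin of the passenger complex, also overlapped, at -0.15 ± 0.07 (SE, limma adjusted p = 0.167).

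The spindle and cytokinesis genes had the highest share of calls, with 5 of 6 lower. *Kif23* (ENSMUSG00000032254, chr9:61915905-61946774, minus strand), a motor of the central spindle, had 724, 738 and 705 with vehicle and 579, 551 and 553 with corticosterone. The vehicle mean was 722 ± 16.3 (SD, n = 3) and the log2 fold change was -0.37 ± 0.06 (SE, limma adjusted p = 0.000327), without overlap. *Nusap1*, a microtubule bundling protein of the spindle, had 688, 606 and 628 with vehicle and 509.6, 489 and 525 with corticosterone, a log2 fold change of -0.33 ± 0.07 (SE, limma adjusted p = 0.00219). *Kif11*, the motor that pushes spindle poles apart, had 1898, 1751 and 1750.1 with vehicle and 1555, 1486 and 1469 with corticosterone, a log2 fold change of -0.26 ± 0.05 (SE, limma adjusted p = 0.00149). Both were separate between the groups. *Prc1*, which cross-links the central spindle, had 1172, 1117 and 1133 with vehicle and 969, 1002 and 1011 with corticosterone, a log2 fold change of -0.20 ± 0.05 (SE, limma adjusted p = 0.0133). *Kif20a*, a cytokinesis motor, had 986, 869.8 and 861 with vehicle and 702, 709 and 830.3 with corticosterone, a log2 fold change of -0.28 ± 0.07 (SE, limma adjusted p = 0.0147), and 26.7% of its 31-mers are shared, mainly with *Cdc23* on the other strand, and reads of the pair cannot be told apart if the counting ignored strand. The call of *Prc1* held in 3 of the 6 fits with a library left out (without vehicle 2, corticosterone 2 or corticosterone 3) and that of *Kif20a* in 2 (without vehicle 2 or corticosterone 3). *Tpx2*, a spindle assembly factor, did not pass, with a log2 fold change of -0.08 ± 0.05 (SE, limma adjusted p = 0.368).

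Leaving out 1 library at a time, 12 of the 17 mitotic calls held each time and 5 (*Mki67*, *Cdk1*, *Cenpa*, *Kif20a* and *Prc1*) were lost at least once. The adjusted p of those 5 went up to 0.13 for *Mki67*, 0.154 for *Cdk1*, 0.191 for *Cenpa*, 0.115 for *Kif20a* and 0.0735 for *Prc1* in limma. The count of mitotic members lower was 12 without vehicle 1 or without vehicle 3, and 16 without vehicle 2. All 17 were also called by edgeR and by DESeq2 on the recovered reads. A single member compared by an exact permutation test cannot go below p = 0.1 with 3 libraries against 3, which every separate member reached.

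**Figure D4:**
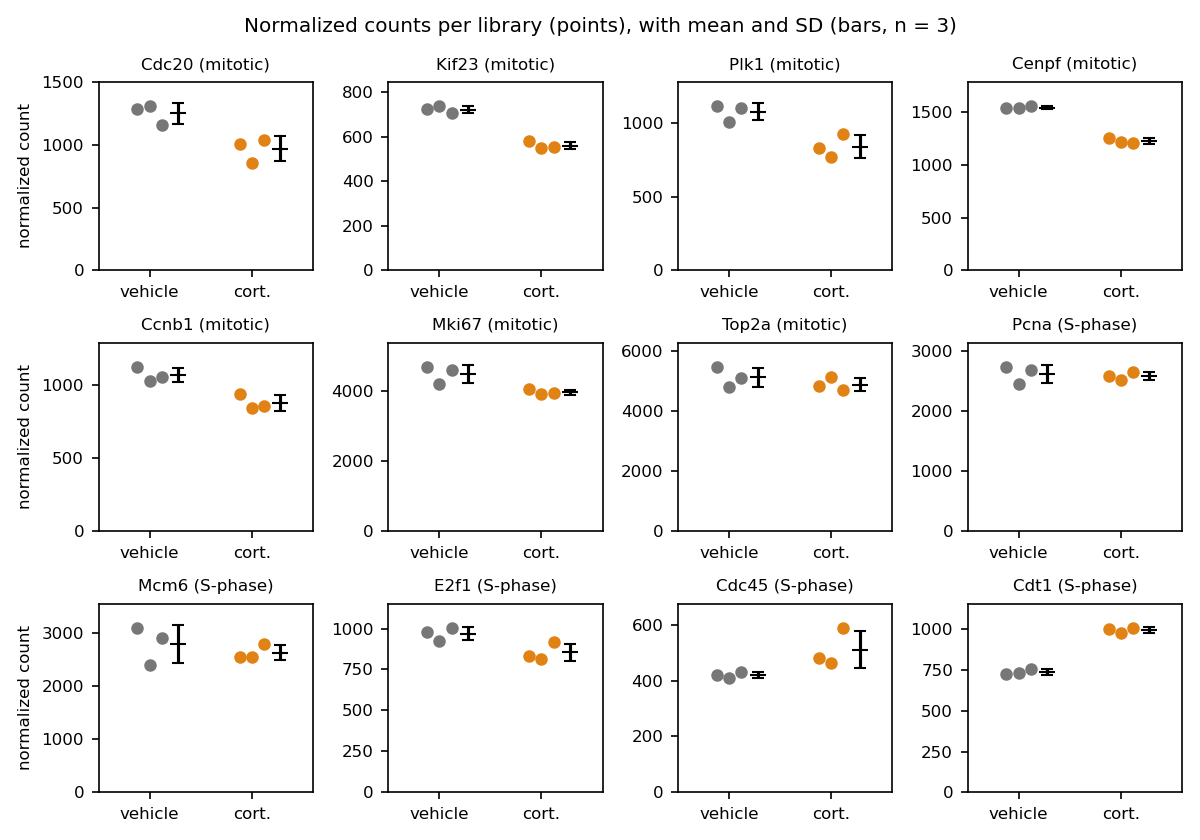
Normalized counts (y axis, from 0) of 12 members in each vehicle (grey) and corticosterone (orange, cort.) library, with the mean and SD of 3 libraries beside the points. *Cdc20*, *Kif23*, *Plk1*, *Cenpf*, *Ccnb1*, *Mki67* and *E2f1* lie lower with corticosterone without overlap, *Top2a*, *Pcna* and *Mcm6* overlap, and *Cdc45* and *Cdt1* lie higher without overlap.

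In the S-phase list, both calls were among the genes of the replicative helicase and its loading, where 2 of 10 were higher, close to the 17.6% of similarly abundant genes that rose. *Cdt1* (ENSMUSG00000006585, chr8:122568015-122573554, plus strand), the licensing factor that loads the MCM helicase onto origins in G1, had 726, 736 and 759 with vehicle and 1004, 977 and 1008 with corticosterone. The means were 740.2 ± 17.2 (SD) with vehicle and 997 ± 16.7 (SD) after corticosterone, n = 3 each. All 3 treated libraries exceeded all 3 vehicle libraries, and the log2 fold change was 0.43 ± 0.05 (SE, limma adjusted p = 2.28e-05). The call held under all 17 alternatives, including each left-out library, although the fit with no filter only repeats the main fit. *Cdc45* (ENSMUSG00000000028, chr16:18780447-18811987, minus strand), which joins MCM and GINS to form the active helicase, had 421, 408 and 429 with vehicle and 481, 464 and 587 with corticosterone. The groups did not overlap, but corticosterone 3 stood above the rest. The log2 fold change was 0.28 ± 0.09 (SE, limma adjusted p = 0.0351), and without corticosterone 3 it was 0.17 with an adjusted p of 0.164. The call was lost without 5 of the 6 libraries, with corticosterone 2 the exception (adjusted p = 0.0328 without it).

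The 6 MCM subunits, which form the ring that unwinds DNA, had log2 fold changes of -0.08 to 0.05, and 0 were called, with adjusted p from 0.573 to 0.972 in limma. Their 95% intervals together ran from -0.24 to 0.18. *Mcm6*, for example, had 3082, 2385 and 2895 with vehicle and 2539.6, 2541 and 2791 with corticosterone, and vehicle 2 was the lowest vehicle library for all 6 subunits. *Mcm5* had 1491, 1278 and 1358 with vehicle and 1329, 1334 and 1423 with corticosterone. Its groups overlapped, and its log2 fold change was -0.01 ± 0.06 (SE, limma adjusted p = 0.945). *Mcm7* shares 33.4% of its 31-mers with other genes. *Cdc6*, the other loading factor, had 384, 276 and 328 with vehicle and 376, 356 and 335 with corticosterone. Its range with vehicle spanned its range with corticosterone, and its log2 fold change was 0.12 ± 0.10 (SE, limma adjusted p = 0.527). *Gins2*, a helicase subunit with 66.2% of its 31-mers shared, mainly with *Gse1* on the other strand, had a log2 fold change of -0.09 ± 0.08 (SE, limma adjusted p = 0.538).

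The clamp and the enzymes of nucleotide supply gave no call (0 of 4). *Pcna*, the sliding clamp of the polymerases, had 2731, 2449 and 2683 with vehicle and 2589.9, 2512 and 2653 with corticosterone, with groups that overlapped and a log2 fold change of -0.02 ± 0.05 (SE, limma adjusted p = 0.874). Its 95% interval was -0.12 to 0.09, and 23.3% of its 31-mers are shared, mainly with *Pcna-ps2*. *Tyms*, thymidylate synthase, had 1197, 1106 and 1112 with vehicle and 1027, 1026 and 1022 with corticosterone. Its groups were separate, and its log2 fold change of -0.15 ± 0.05 (SE, limma adjusted p = 0.0687) missed the threshold in limma and passed it in edgeR (adjusted p = 0.0363, range over the alternatives 0.012 to 0.212). *Rrm1*, the large subunit of ribonucleotide reductase, had 3827, 3200.0 and 3495 with vehicle and 3174, 3235 and 3223 with corticosterone, overlapping through vehicle 2, and a log2 fold change of -0.12 ± 0.05 (SE, limma adjusted p = 0.158). Its partner *Rrm2* had a log2 fold change of -0.06 ± 0.07 (SE, limma adjusted p = 0.674).

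The G1/S regulators and the checkpoint kinase gave no call either (0 of 4). *E2f1* (ENSMUSG00000027490, chr2:154559407-154569892, minus strand), an activating E2F and itself a target of the G1/S wave, had 978, 926 and 1002 with vehicle and 835, 815 and 915 with corticosterone. Its groups were separate with corticosterone lower, and its log2 fold change of -0.18 ± 0.06 (SE, limma adjusted p = 0.0527) lay at the threshold, on the other side of which edgeR put it (adjusted p = 0.0314, range over the alternatives 0.00991 to 0.221). *Ccne1*, the cyclin that starts S phase, had 416, 423 and 412 with vehicle and 449.7, 452 and 453 with corticosterone. Although the groups were separate and the libraries close together, its log2 fold change of 0.11 ± 0.07 (SE, limma adjusted p = 0.318) did not pass. The paralog *Ccne2* had 466, 426 and 397 with vehicle and 367, 357 and 414 with corticosterone and a log2 fold change of -0.18 ± 0.08 (SE, limma adjusted p = 0.185), of the opposite sign and also not past the test. *Chek1*, the kinase that responds to stalled replication, was the lowest member, at 166, 159 and 179 with vehicle and 162, 177 and 130.5 with corticosterone, with a log2 fold change of -0.11 ± 0.13 (SE, limma adjusted p = 0.657).

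Levels can be compared between genes only per length, here as normalized counts per kb of the longest annotated transcript with vehicle. S-phase members ran from 44.3 for *Chek1* to 1727 for *Pcna*, with *Mcm7* at 838, *Mcm2* at 667, *Rrm1* at 641 and *Mcm6* at 640.0 per kb next. Mitotic members ran from 96 for *Mybl2* to 982 for *Top2a*, followed by *Cdc20* at 699, *Ccna2* at 577, *Aurkb* at 562 and *Plk1* at 489 per kb. With the mean length of the annotated transcripts in place of the longest, 2 of the top 5 mitotic and all of the top 5 S-phase genes stayed in the top 5, so the mitotic order depends on the length used.

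Other genes of both pathways, not among the members, were examined from lists, which were also chosen with earlier results of these data known. In a list of 65 other mitotic genes, 34 fell and 1 (*Mad1l1*) rose in limma, with a median log2 fold change of -0.21, and their summed level was 88.1% ± 2.34 (SD, n = 3) of the vehicle mean. The 5 with the largest falls among those called were *Cenpm* (centromere, log2 fold change -0.46 ± 0.11 SE, limma adjusted p = 0.00643), *Nek2* (centrosome kinase, -0.41 ± 0.08 SE, limma adjusted p = 0.001), *Stmn1* (stathmin, a microtubule destabilizer, -0.39 ± 0.05 SE, limma adjusted p = 3.42e-05), *Ndc80* (kinetochore, -0.38 ± 0.09 SE, limma adjusted p = 0.00547) and *Ccnf* (cyclin F, -0.36 ± 0.05 SE, limma adjusted p = 7.79e-05). With each library left out, the calls of *Nek2*, *Stmn1* and *Ccnf* held, that of *Ndc80* held in 4 of 6 fits, and those of *Cenpm* and *Mad1l1* in 3 of 6. In a list of 55 other replication genes, 4 fell and 2 rose, with a median of -0.03 and a summed level of 97.6% ± 1.74 (SD, n = 3). For comparison, 8.2% of all genes fell and 8.49% rose, or 15.8% and 17.6% of genes at least as abundant as the lowest member. The shares of the other replication genes that fell or rose were below all of these. The CHR was found in 70.2% of 57 other mitotic and 15.9% of 44 other replication promoters, and E2F letters in 12.3% and 29.5%.

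The other replication genes that fell were *Dscc1*, *Rfc3*, *Rad51ap1* and *Rpa1*. *Dscc1*, which helps load the clamp in sister chromatid cohesion, had 113, 71 and 119 with vehicle and 62.1, 45.3 and 66.5 with corticosterone. It was separate between groups but varied within them, and its log2 fold change was -0.78 ± 0.21 (SE, limma adjusted p = 0.0173). *Rpa1*, the large subunit of the single-strand binding protein, had a log2 fold change of -0.18 ± 0.04 (SE, limma adjusted p = 0.00535). The 2 that rose were *Rfc1*, the large subunit of the clamp loader (0.21 ± 0.06 SE, limma adjusted p = 0.0166), and *Pold2*, a subunit of polymerase delta (0.19 ± 0.06 SE, limma adjusted p = 0.0461). Of these 6 calls, that of *Rpa1* held with each library left out and the other 5 were lost in at least 4 of the 6 such fits.

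**Figure D5:**
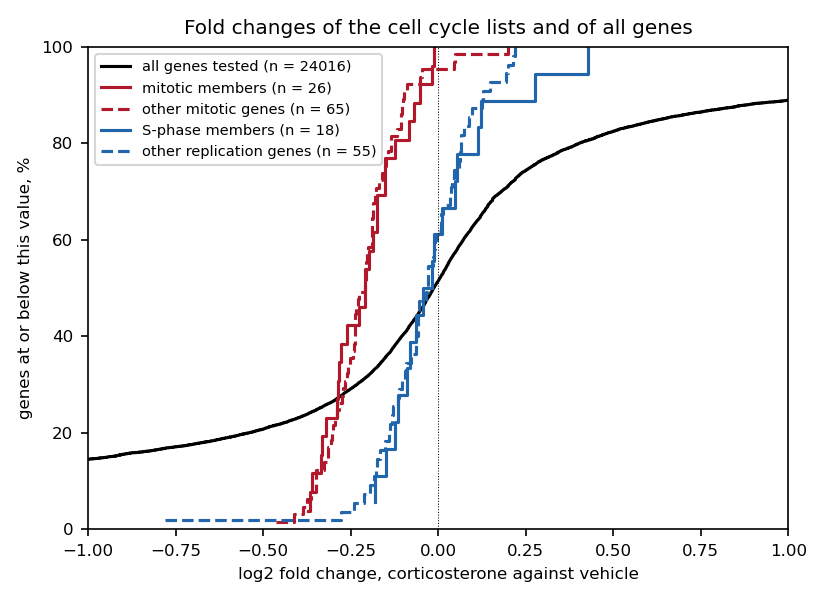
Cumulative share of genes (y axis, percent) at or below each log2 fold change of corticosterone against vehicle (x axis, shown from -1 to 1) for the members, the other genes of their pathways and all 24016 genes tested. The mitotic curves lie to the left with medians of -0.21, and the S-phase and other replication curves cross 50% at -0.03.

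Of 19 genes for E2F factors, pocket proteins and MuvB subunits, which act above both waves, 3 rose and 2 fell, shares no higher than the 17.6% and 15.8% among genes at least as abundant as the lowest member. *E2f6*, which encodes a repressor E2F, had 709, 648 and 698 with vehicle and 1547, 1386 and 1444 with corticosterone. The groups were far apart, and the log2 fold change was 1.09 ± 0.06 (SE, limma adjusted p = 1.34e-09), past the limit of 1. *E2f4*, the E2F of the repressive DREAM complex, rose from 933, 878 and 912 with vehicle to 1065, 1028 and 1084 with corticosterone, with a log2 fold change of 0.22 ± 0.05 (SE, limma adjusted p = 0.00801). Its pocket protein partner *Rbl2* rose at 0.20 ± 0.06 (SE, limma adjusted p = 0.0399), a call lost whichever of the 6 libraries was left out. *Rb1*, the retinoblastoma protein, fell at -0.27 ± 0.08 (SE, limma adjusted p = 0.027), and *E2f7*, another repressor E2F, fell at -0.26 ± 0.08 (SE, limma adjusted p = 0.0425), calls kept in 2 and 1 of these 6 fits, whereas those of *E2f6* and *E2f4* held in all 6. Among 12 genes for D cyclins, their kinases, CDK inhibitors and *Myc*, 2 rose and 5 fell. Of all genes, 8.49% rose and 8.2% fell, or 17.6% and 15.8% of genes at least as abundant as the lowest member. The 12 genes themselves were not filtered on level. *Myc* (0.50 ± 0.05 SE, limma adjusted p = 2.47e-06) and *Ccnd3* (0.22 ± 0.06 SE, limma adjusted p = 0.0184) rose. *Ccnd2* (-0.27 ± 0.05 SE, limma adjusted p = 0.000507) and *Cdk4* (-0.11 ± 0.04 SE, limma adjusted p = 0.0463) fell. So did the CDK inhibitors *Cdkn1a* (-0.37 ± 0.07 SE, limma adjusted p = 0.000631) and *Cdkn2d* (-0.42 ± 0.07 SE, limma adjusted p = 0.000666). *Cdkn1b* fell too (-0.17 ± 0.05 SE, limma adjusted p = 0.0363). Leaving out a library, the calls of *Ccnd3*, *Cdk4* and *Cdkn1b* held in 2, 1 and 1 of 6 fits, the others in all 6.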

How the data were processed

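RNA-seq was done on 3 vehicle and 3 corticosterone libraries of MC3T3-E1 cells. The deposited file is a table of signal values, 1 for each gene and library, which the authors named FPKM, and mm10 is the build given in the submitters' processing notes. Within a library all values share a common step, whatever the gene length, so each is a read count divided by 1 size factor per library (whole to 0.01 for 100% of values). The aligner, counter and strand setting are not given in the sources used here. The design assumed FPKM and was kept.

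The members, lists and motifs were chosen with earlier results of these data known. The main test was limma 3.58.1 (trend) in R 4.3.3 on log2(value + 0.1), mean of at least 0.1 (removing 0 genes), with Benjamini-Hochberg adjustment over 24016 genes. Called means an adjusted p under 0.05. Alternatives were pseudocounts of 1 and 0.01, no filter, the replicate block, a filter at a mean of 10, upper-quartile scaling, scaling to the same total, edgeR 4.0.16 and DESeq2 1.42.0 on recovered reads, and each library left out. The fit with no filter equals the main fit, since the filter removed 0 genes. Scaling without the 10 genes of highest mean and edgeR with the block were chosen after seeing the data. Names were open to all members, of each other list up to 5 called genes per direction by absolute log2 fold change with a mean of at least 10, and the markers and glucocorticoid targets, of which the text gives a part. The fits were first run on simulated counts as a check. Recovery was required only at an absolute log2 fold change of 1, larger than the changes of the members. Coordinates, lengths and shared 31-mers came from GENCODE M21 (GRCm38). Figures were made with matplotlib 3.10.9.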

Additional observations from a re-analysis of the deposited data

How the results depend on the processing

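No called gene named here changed direction under the alternatives run. Of the members without a call, 11 changed sign when some library was left out, 3 of them mitotic (*Bub1b*, *Ube2c* and *Mybl2*) and 8 S-phase. The median log2 fold change of S-phase members, -0.03, ran from -0.11 (without vehicle 2) to 0.02 (without vehicle 1) and was 0.0018 without corticosterone 2. The count of mitotic members lower stayed between 16 and 19 under the alternatives that kept all libraries and between 12 and 16 with 1 library left out. Their median log2 fold change was -0.26 when libraries were scaled to the same total of all but the 10 genes with the highest mean. Scaling to the same total moved the split of calls over all genes from 2040 higher and 1970 lower to 1703 and 2521, and without those 10 genes to 1626 and 2772.

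S-phase members higher were 1 with a pseudocount of 0.01 and under both scalings to a total, and 1 to 2 with a library left out. S-phase members lower were 1 with a pseudocount of 1, with the replicate block and with upper-quartile scaling, 2 with a mean of at least 10, with edgeR and with edgeR with the replicate block, 3 under both scalings to a total, and 0 to 3 with a library left out (3 without vehicle 2). Other mitotic genes higher were 0 when the 10 genes were left out of the total and 0 to 1 with a library left out, and lower were 15 to 30. Other replication genes higher were 1 with a pseudocount of 0.01, 0 under both scalings to a total, 5 with edgeR and the replicate block, and 0 to 3 with a library left out. Other replication genes lower were 8 with the same total, 9 without the 10 genes, 8 with edgeR and the replicate block, 2 with DESeq2, and 1 to 7 with a library left out. For E2F, pocket protein and MuvB genes, lower calls were 1 with a pseudocount of 0.01 and with DESeq2, and 0 to 2 with a library left out. For D cyclins, CDK inhibitors and *Myc*, higher calls were 1 under both scalings to a total and 1 to 2 with a library left out, and lower calls were 3 with a pseudocount of 0.01 and 3 to 4 with a library left out. Over all genes, lower calls were 1148 to 1611 with a library left out, and those also past a log2 fold change of 1 were 204 to 321 against 337. The cause of these shifts was not tested, except that leaving out a library leaves fewer samples.

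Whether same-numbered libraries were handled as pairs is not stated in the sources used here. No pair effect was seen, since deviations of same-numbered libraries from their group means correlated at -0.04, 0.0014 and 0.02 over 13880 genes. With 3 libraries per group these correlations cannot show that the libraries were handled apart. With the replicate block, *E2f1* was called lower and 17 mitotic members were lower, as without it. Not every library correlated best with its own number. Across the 16 S-phase members without a call, 95% intervals of the log2 fold change reached from -0.38 to 0.35, and missing the threshold does not show that these genes did not change.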
